A study of Mus musculus with 25 samples.

Results

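The RNA of 10 genes that encode titin and proteins of the cardiac Z-disc, titin spring and adhesion sites was described across 25 mouse hearts. The genes are Ttn, Ankrd1, Ankrd23, Xirp1, Xirp2, Fhl1, Fhl2, Csrp3, Flnc and Myoz2. They were chosen by symbol for their known place in the sarcomere, with earlier results of these data known. Shares of all genes set beside them are therefore a description, not independent support. All 10 were found among the 56941 genes of the count table. They passed the filter on low counts, which kept 17682 genes. The series compared WT mice with mice labelled MCT1KO, in which the lactate and pyruvate transporter MCT1 (gene Slc16a1) is named as the knocked-out gene, in 6 groups: hearts without a pump (4 WT, 3 labelled MCT1KO), with saline (6 WT, 4 labelled MCT1KO), and with Ang/PE (3 WT, 5 labelled MCT1KO), neurohormonal agonists given to cause cardiac hypertrophy. The genotype beyond these names, the cell type in which the gene was deleted, and strain, age, sex, dose and duration are not given in the sources used here. Stretch itself was not measured.

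The sarcomere is the contractile unit of heart muscle, and the Z-disc is the boundary at which actin filaments and the giant spring protein titin are anchored. Ankrd1 and Ankrd23 are ankyrin-repeat proteins that bind the elastic part of titin and are known to be induced by mechanical load. Xirp1 and Xirp2 are actin-binding Xin-repeat proteins of intercalated discs and sites of sarcomere strain, where they partner with the actin crosslinker filamin C (Flnc). Fhl1, Fhl2 and Csrp3 are LIM-domain proteins at titin and the Z-disc, and Myoz2 (calsarcin-1) ties the phosphatase calcineurin to the Z-disc. As background, load raises the RNA of several of these genes together with that of the natriuretic peptides.

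The libraries held 12216704 to 24880683 counts each, and the least-counted member, Ankrd23, had 563 to 3695 counts in a heart. Slc16a1 was at 150.3 to 233 CPM (median 213), 165 to 249 CPM (median 190.0) and 203 to 223 CPM (median 217) in WT hearts (no pump, saline, Ang/PE), and at 167 to 223 CPM (median 209.8), 132 to 194 CPM (median 153) and 162 to 213 CPM (median 192) in hearts labelled MCT1KO. CPM is a gene's count over the scaled size of its library. The gene-level count did not separate the labels, and it does not resolve a deleted exon or a deletion in cardiomyocytes alone, so the hearts are called labelled MCT1KO throughout. All 6 cardiomyocyte markers were present in every heart, with a summed level of 31729 to 62410 CPM, and the 7 skeletal muscle markers summed to 0.814 to 2.89 CPM. The 3 atrial markers summed to 1.51 to 2.50 CPM without a pump and 1.72 to 5.73 CPM with Ang/PE, but to at most 1136 CPM in WT saline hearts and 3679 CPM in labelled MCT1KO saline hearts, and the 5 fat markers reached 1216 CPM in 1 saline heart (labelled MCT1KO replicate 4). Xist was above 100 CPM in 2 of 4, 1 of 6 and 3 of 3 WT hearts (no pump, saline, Ang/PE) and in 0 of 3, 3 of 4 and 4 of 5 hearts labelled MCT1KO, so the sexes were not balanced. Differences between these groups cannot be fully told apart from sex, and Fhl1 lies on the X chromosome. With Xist as a covariate, no edgeR call of a member was lost or gained. Nothing in the labels says that the numbered hearts came from separate litters or surgeries. P-values measure the spread between these hearts. In RNA from mixed cells of the heart, fewer cells of a type and less RNA per cell cannot be told apart.

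Per exon length, Fhl2 was the most abundant of the 10 genes in WT hearts without a pump, and Fhl1 the least. Fhl2 was at 738 ± 76.3 (SD, n = 4) CPM per kilobase of exon. Csrp3 followed at 365 ± 24.6 and Ttn at 332 ± 73.8, and the ranges of these 2 overlapped. Myoz2 was at 234 ± 16.8 and below them without overlap. Ankrd1 (164 ± 49.0), Xirp2 (90.9 ± 9.42), Flnc (65.5 ± 17.3), Xirp1 (50.7 ± 13.8) and Ankrd23 (38.6 ± 4.02) came next, each overlapping its neighbour in this order. Fhl1 was at 29.4 ± 1.83, below the range of Ankrd23. In plain counts Ttn, with the longest exon union of the 10 genes, led by far, taking 3.25% to 8.19% of all counts in a heart, and the 10 genes together took 3.86% to 9.03%. The lengths are GENCODE exon unions on an older build than the authors', so the levels per length are approximate.

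**Figure D1:**
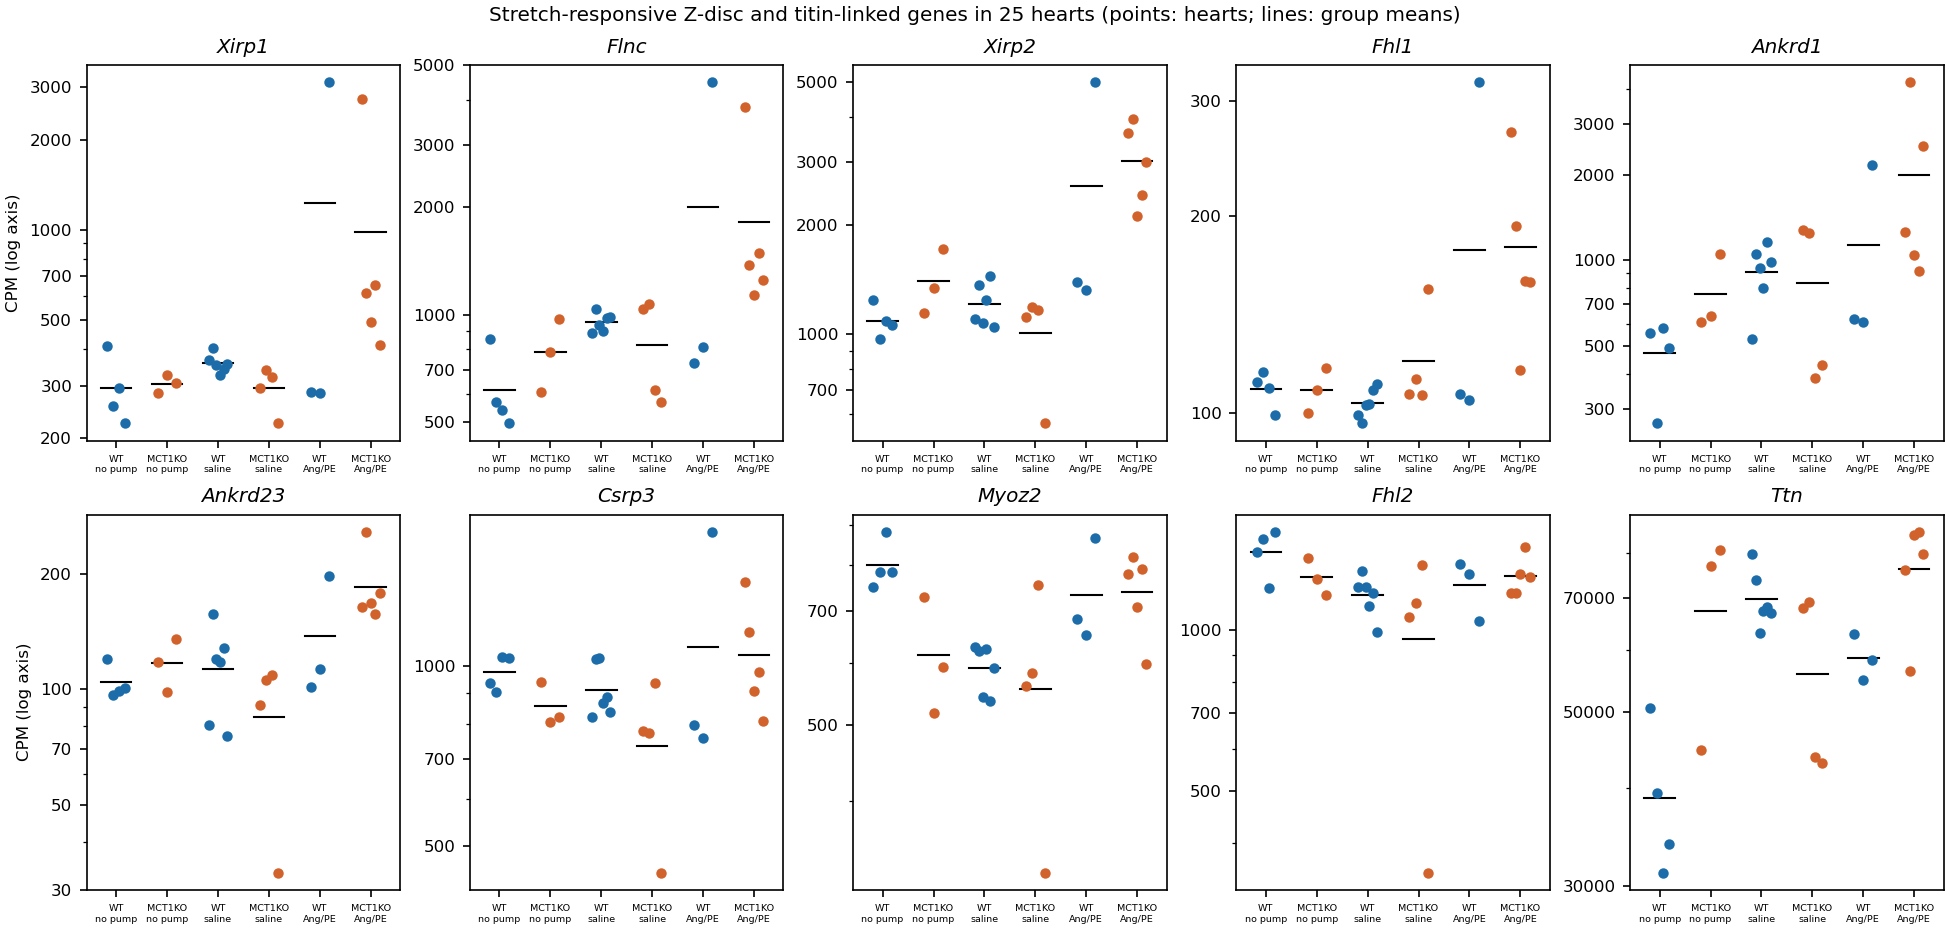
CPM on a log axis for each of the 10 genes in each of 25 hearts, by group; points are hearts (blue WT, orange labelled MCT1KO) and black lines are group means. Xirp1, Flnc, Xirp2 and Ankrd23 lie above all 17 other hearts in 6 of the 8 Ang/PE hearts, while 2 WT Ang/PE hearts lie among the others.

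The regions just upstream of the genes are shown because several of these genes were high in the same hearts. RefSeq (GRCm38.p6) gave windows for 9 of the 10 genes, 14 windows in all, and the 250 bases before each start were searched on both strands. The motifs were CATTCC, the core of the element that TEAD factors bind, the MEF2 site, the CArG box, which serum response factor binds, and AGATAA, which GATA factors bind. CATTCC was in 12.6% of all 32851 windows of this length and in 3 of the 14 windows here, from 3 of the 9 genes (Ankrd1, Ankrd23 and Flnc). A MEF2 site was in 2.92% of all windows and in 4 of the 14, from 4 of the 9 genes, among them Ttn, Xirp2 and Fhl2. The CArG box was in 1.47% of all windows and in 3 of the 14, from Fhl1 and Fhl2. AGATAA was in 9.99% of all windows and in 3 of the 14, from Ankrd1, Ankrd23 and Fhl2. No match of 1 motif overlapped a match of another. Each sequence is 5′ to 3′ on the strand of the gene, with the match in capitals (GGAATG is CATTCC on the other strand); a match is a description of letters, not a site. The Flnc, Xirp2 and Ttn windows end at the base before the GENCODE start of the gene, while the Ankrd1, Ankrd23 and Fhl2 stretches lie inside GENCODE gene models that begin upstream of the RefSeq start used.
Ankrd1 stretch of 30 bases, chr19:36120037-36120066, minus strand, match starting 210 bases before the start: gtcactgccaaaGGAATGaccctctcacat
Ankrd1 stretch of 30 bases, chr19:36119950-36119979, minus strand, match starting 123 bases before the start: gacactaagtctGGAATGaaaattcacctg
Ankrd23 stretch of 30 bases, chr1:36535842-36535871, minus strand: cccagtgggccaCATTCCcagaacggtatt
Fhl2 stretch of 30 bases, chr1:43196773-43196802, minus strand, MEF2 site: tggacatgccTTATTTATAActctgctgac
Flnc window of 250 bases, chr6:29433006-29433255, plus strand, CATTCC: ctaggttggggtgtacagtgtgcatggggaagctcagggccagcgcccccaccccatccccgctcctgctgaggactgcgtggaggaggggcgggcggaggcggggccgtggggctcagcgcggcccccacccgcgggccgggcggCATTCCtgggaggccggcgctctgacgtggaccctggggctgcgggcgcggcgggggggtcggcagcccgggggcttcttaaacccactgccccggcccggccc
Xirp2 window of 250 bases, chr2:67445752-67446001, plus strand, MEF2 site: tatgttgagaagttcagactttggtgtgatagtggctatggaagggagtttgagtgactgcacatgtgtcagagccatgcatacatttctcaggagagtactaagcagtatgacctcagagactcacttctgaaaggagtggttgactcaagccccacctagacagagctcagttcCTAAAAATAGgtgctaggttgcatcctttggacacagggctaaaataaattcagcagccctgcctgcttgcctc
Ttn window of 250 bases, chr2:76982548-76982797, minus strand, MEF2 site: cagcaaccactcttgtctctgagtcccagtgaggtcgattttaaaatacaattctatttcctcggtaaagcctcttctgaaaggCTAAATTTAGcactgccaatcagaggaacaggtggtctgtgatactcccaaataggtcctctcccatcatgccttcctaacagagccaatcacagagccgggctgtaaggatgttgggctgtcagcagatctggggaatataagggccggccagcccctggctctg

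The main question for these genes was whether Ang/PE raised them, and whether it did so differently between the genotypes. In hearts labelled MCT1KO, Xirp2 and Ankrd23 rose with Ang/PE against saline, 2 of the 10 genes, where 4.46% of all tested genes were called in either direction, 1.75% were called higher and 2.7% lower. All 10 fold changes were positive (median 0.85 on the log2 scale, median of all genes -0.01). Of the 10, 9 had an unadjusted p below 0.05, as did 3612 of the 17682 tested genes. Higher in all 5 Ang/PE hearts than in all 4 saline hearts were 4 genes (Ankrd23, Xirp1, Xirp2 and Flnc), where 3.06% of all genes were. Lower without overlap were 0 (2.36% of all genes). In WT hearts 0 of 10 were called by edgeR for the same step, where 0.017% of all genes were called in either direction and 0.0113% higher. There 4 members had an unadjusted p below 0.05, as did 3369 of the 17682 genes, and DESeq2 called 1 member, Xirp2. Myoz2 was higher and Ttn lower without overlap in WT, 1 gene in each direction, where 6.39% and 7.16% of all genes were. The difference between the genotypes in this step was called for 0 of 10 genes by edgeR and 0 by DESeq2 (0% of all genes by edgeR). An unadjusted p below 0.05 was found for 2 of 10 members and for 2392 of the 17682 genes. Those 2 were Ankrd23 and Ttn (0.70 ± 0.29 (SE) for Ttn, adjusted p = 0.325 by edgeR).

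Xirp2, a Xin-repeat protein of strained sarcomeres, was the member with the smallest p for Ang/PE against saline in both genotypes, and it rose in hearts labelled MCT1KO. With Ang/PE it was at 3599, 3947, 2120.1, 2429 and 2994 CPM in the 5 hearts labelled MCT1KO and at 1394, 1325 and 4986 CPM in the 3 WT hearts. With saline it was at 1118, 1188, 1164 and 565 CPM in the hearts labelled MCT1KO and at 1045 to 1445 CPM (median 1173) in WT. Without a pump it was at 1242, 971, 1084 and 1059 CPM in WT and 1146, 1344 and 1725 CPM in hearts labelled MCT1KO. All 5 Ang/PE hearts labelled MCT1KO and 1 of 3 in WT lay above every one of the 17 hearts without Ang/PE. Against saline the change was 1.58 ± 0.31 (SE) on the log2 scale in hearts labelled MCT1KO (adjusted p = 0.0123) and 1.08 ± 0.30 (SE) in WT (adjusted p = 0.0782). Against no pump it was 1.10 ± 0.34 (SE) and 1.24 ± 0.33 (SE), neither called by edgeR (adjusted p = 0.131 and 0.372). DESeq2 called Xirp2 in WT against saline (adjusted p = 0.0210) and in hearts labelled MCT1KO against no pump (adjusted p = 0.0282). These steps use the same Ang/PE hearts and are not independent of each other.

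Xirp1, its close relative, varied more than any other member among Ang/PE hearts. It was at 287, 285 and 3117 CPM in the 3 WT Ang/PE hearts, a 10.9-fold range, and at 2739, 614, 493, 655 and 412 CPM in the 5 labelled MCT1KO. Saline hearts were at 326 to 401 CPM (median 354) in WT and 295, 339, 321 and 225 CPM in the other genotype. Without a pump it was at 409, 256, 295 and 224 CPM in WT and 283, 327 and 306 CPM in the other genotype. The 5 hearts labelled MCT1KO lay above all 17 hearts without Ang/PE (highest of those 409 CPM), and so did 1 of 3 WT hearts, while the other 2 WT hearts lay inside the range of those without Ang/PE. The change against saline was 1.74 ± 0.60 (SE) in hearts labelled MCT1KO (adjusted p = 0.106) and 1.78 ± 0.58 (SE) in WT (adjusted p = 0.119), and neither passed the test. Flnc, the actin crosslinker that binds Xin proteins, showed the same hearts high: 733, 810.4 and 4485 CPM in WT and 3819.7, 1374, 1139, 1490.3 and 1253 CPM in hearts labelled MCT1KO with Ang/PE. With saline Flnc was at 887 to 1036 CPM (median 958) in WT and 1038, 1073, 615 and 570.3 CPM in hearts labelled MCT1KO, and without a pump at 856, 568, 542 and 496 and 606, 785 and 973 CPM. Its change against saline was 1.14 ± 0.44 (SE) in hearts labelled MCT1KO (adjusted p = 0.139) and 1.08 ± 0.43 (SE) in WT (adjusted p = 0.186).

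A pair of Ang/PE hearts set much of the size of these changes: WT replicate 3 and labelled MCT1KO replicate 1. WT replicate 3 exceeded the mean of the other 2 WT Ang/PE hearts 10.9-fold for Xirp1, 5.81-fold for Flnc, 3.67-fold for Xirp2, 3.53-fold for Ankrd1 and 3.02-fold for Fhl1. The labelled MCT1KO replicate 1 exceeded the mean of the other 4 by 5.04-fold for Xirp1 and 2.91-fold for Flnc, but for Xirp2 by 1.25-fold only, and Ankrd1 was lower in it (0.58 of their mean). With both hearts left out, the WT change against saline was -0.31 for Xirp1, -0.30 for Flnc, 0.17 for Xirp2 and 0.04 for Fhl1, none called. In hearts labelled MCT1KO it was 0.89 for Xirp1, then called (adjusted p = 0.0088), and 0.68 for Flnc (adjusted p = 0.0594), and 3 of 10 members were called in place of 2. The 3 atrial markers summed to 1.72 and 2.01 CPM in these 2 hearts, and the 5 fat markers to 12.6 and 13.4 CPM, both within the range of hearts without a pump.

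**Figure D2:**
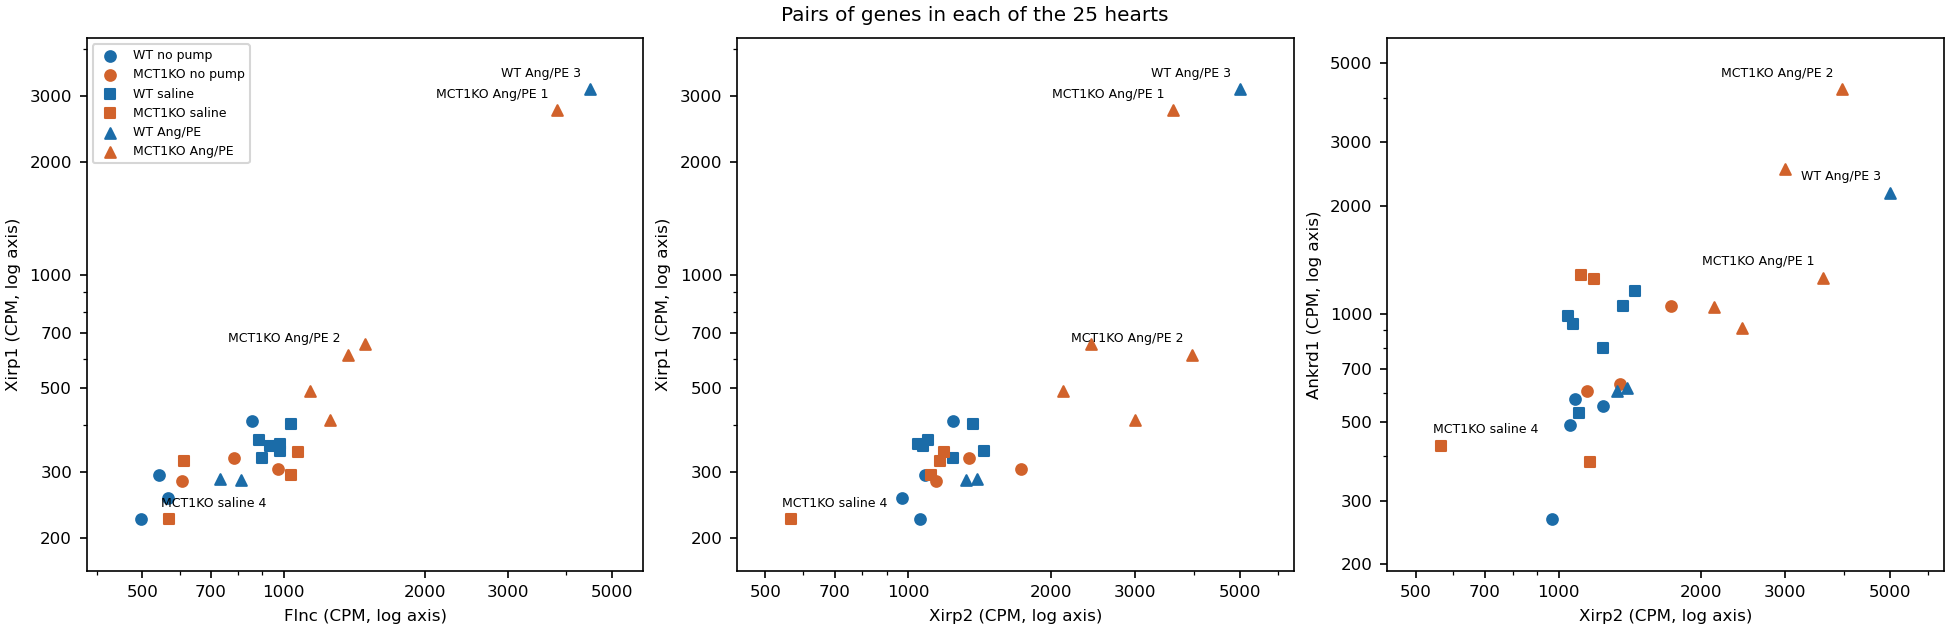
CPM of Xirp1 against Flnc, Xirp1 against Xirp2, and Ankrd1 against Xirp2 on log axes, 1 point per heart (circles no pump, squares saline, triangles Ang/PE; blue WT, orange labelled MCT1KO). WT Ang/PE replicate 3 and labelled MCT1KO Ang/PE replicate 1 stand apart at the top for Xirp1 and Flnc, whereas Ankrd1 was highest in labelled MCT1KO Ang/PE replicate 2 at 4219 CPM.

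Ankrd1 and Ankrd23, the titin-spring ankyrin-repeat proteins, differed in how far the Ang/PE hearts overlapped the controls, and Ankrd23 rose in hearts labelled MCT1KO. Ankrd23 was at 164, 258, 168, 157 and 179 CPM in the 5 Ang/PE hearts labelled MCT1KO, above 91.1, 105, 109 and 33.2 CPM with saline and 118, 98.2 and 135 CPM without a pump. In WT it was at 102, 113 and 197 CPM with Ang/PE, at 75.6 to 157 CPM (median 119) with saline and at 120.2, 96.5, 98.9 and 101 CPM without a pump. The Ang/PE hearts labelled MCT1KO did not overlap either control group, and in WT 1 of 3 stood above. The change against saline was 1.13 ± 0.28 (SE) in hearts labelled MCT1KO (adjusted p = 0.0263) and 0.28 ± 0.28 (SE) in WT (adjusted p = 0.628), with a difference between genotypes of 0.85 ± 0.40 (SE) (adjusted p = 0.363). Ankrd1 was at 1261, 4219, 1042, 914 and 2523 CPM and 620.1, 609 and 2171 CPM with Ang/PE (labelled MCT1KO and WT), at 1282, 1245, 387 and 429 CPM and 528 to 1159 CPM (median 962) with saline, and at 607, 636 and 1049 CPM and 554, 267, 577 and 491 CPM without a pump. The Ang/PE hearts overlapped saline hearts in both genotypes, and 3 of 8 exceeded every heart without Ang/PE. The change against saline was 1.25 ± 0.49 (SE) in hearts labelled MCT1KO and 0.32 ± 0.50 (SE) in WT, neither called (adjusted p = 0.152 and 0.774).

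The calls for Xirp2 and Ankrd23 rest partly on 1 saline heart, labelled MCT1KO replicate 4. In it the 3 atrial markers summed to 3679 CPM and the 5 fat markers to 1216 CPM, and the cardiomyocyte markers were at their lowest, 31729 CPM. Ankrd23 was at 33.2 CPM there, Xirp2 at 565, Fhl2 at 352, Csrp3 at 452 and Myoz2 at 324 CPM, each the lowest of the 25 hearts, whereas Fhl1 was at 155 CPM, the highest of the 17 hearts without Ang/PE. Without this heart 0 of 10 members were called in this step (Xirp2 1.38, adjusted p = 0.0618, and Ankrd23 0.86, adjusted p = 0.0944). Calls over all genes in this step were 788 with all hearts and ranged from 46 to 1549 with 1 heart left out. With the atrial and fat marker scores as covariates 0 members were called (Xirp2 1.27, Ankrd23 0.62), as were 0 when only these 2 groups were fitted. The atrial score ran from -1.84 to 9.93 in saline hearts labelled MCT1KO and from -1.70 to -0.65 in their Ang/PE hearts. The fit with the scores therefore cannot fully separate them from treatment. Ankrd23 was also not called without labelled MCT1KO Ang/PE replicate 2 (0.97, adjusted p = 0.0542) or with no low-count filter (1.12, adjusted p = 0.0712). What part other tissue in the saline samples has in these calls was not tested beyond this.

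**Figure D3:**
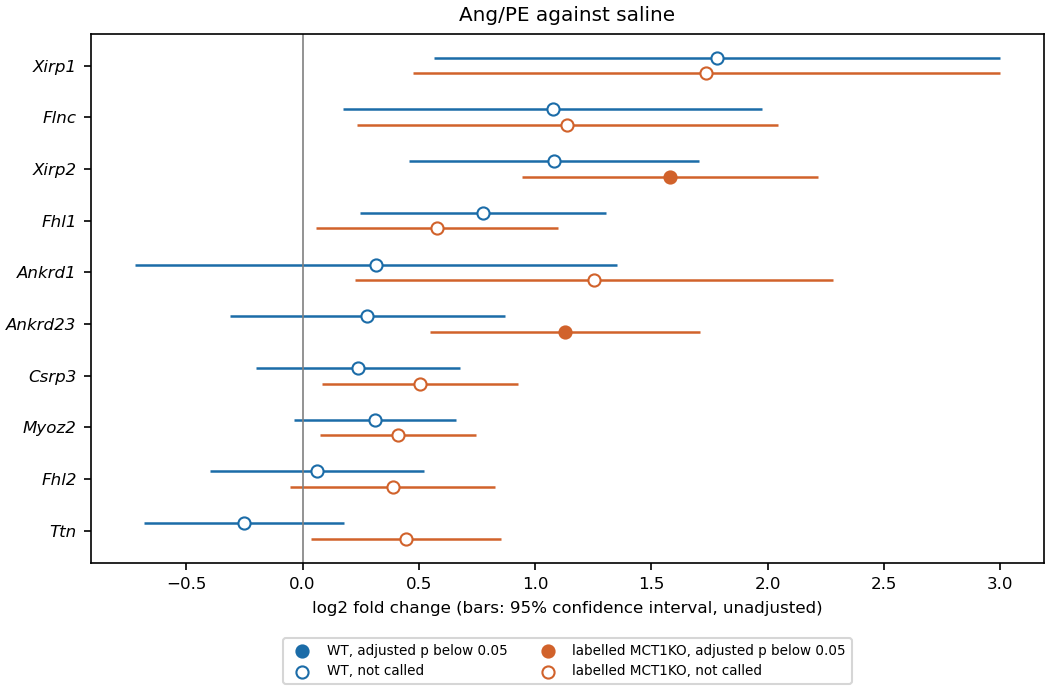
Log2 fold change of Ang/PE against saline with its 95% confidence interval for each gene, WT in blue and labelled MCT1KO in orange; filled points have an adjusted p below 0.05. Xirp2 and Ankrd23 are filled in hearts labelled MCT1KO, and the intervals of the 2 genotypes overlap for every gene.

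With all 6 groups in the edgeR model, none of the LIM proteins nor calsarcin-1 passed the test in any comparison. Fhl1, a LIM protein that binds titin's elastic N2B region, was at 107, 105 and 320.4 CPM in WT and 269, 193, 117, 159 and 158 CPM in hearts labelled MCT1KO with Ang/PE. Outside Ang/PE it varied little except in 1 saline heart, at 112, 115, 109 and 99.6 CPM and 100.1, 109 and 117 CPM without a pump, 96.5 to 111 CPM (median 103) in WT with saline and 107, 113, 106 and 155 CPM labelled MCT1KO with saline. Against saline the change was 0.78 ± 0.26 (SE) in WT and 0.58 ± 0.25 (SE) in hearts labelled MCT1KO, neither called (adjusted p = 0.118 and 0.194). Csrp3, muscle LIM protein, was at 795, 757 and 1671 CPM and 1380.0, 1138, 906, 976 and 809.6 CPM with Ang/PE, against 822 to 1029.8 CPM (median 876) with saline in WT and 778, 771, 934 and 452 CPM in hearts labelled MCT1KO. Without a pump Csrp3 was at 936, 904, 1034 and 1029 CPM and 939, 806 and 819.9 CPM, and the groups overlapped.

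Fhl2 and Myoz2 had 0 of 8 Ang/PE hearts above the highest heart without Ang/PE. Fhl2, a LIM protein of the titin N2B and M-band regions, was at 1042 to 1331 CPM in WT and 1171 to 1431 CPM in hearts labelled MCT1KO with Ang/PE, and at 1199 to 1528 CPM in WT and 1164 to 1362 CPM in hearts labelled MCT1KO without a pump. With saline it was at 993 to 1290.1 CPM in WT and 1056, 1122, 1325 and 352 CPM in hearts labelled MCT1KO. Its change against saline was 0.06 ± 0.22 (SE) in WT and 0.39 ± 0.21 (SE) in hearts labelled MCT1KO, with 95% intervals of -0.40 to 0.52 and -0.05 to 0.83. Myoz2 was at 683, 651 and 867 CPM and 779, 819, 709, 793 and 599 CPM with Ang/PE, at 537 to 630.0 CPM (median 607) and 561, 584, 756 and 324 CPM with saline, and at 751, 784, 883 and 784 CPM and 729.8, 519 and 593 CPM without a pump (WT first in each pair). Its change with Ang/PE against saline was 0.31 ± 0.17 (SE) in WT and 0.41 ± 0.16 (SE) in hearts labelled MCT1KO. Neither was called by edgeR (adjusted p = 0.318 and 0.150). Without labelled MCT1KO saline replicate 3, edgeR called it in that genotype (0.58, adjusted p = 0.0239). In WT, the saline hearts were all below those without a pump for Myoz2 (log2 fold change -0.44, SE 0.15, adjusted p = 0.0841), which was not called. That step was called by DESeq2 (adjusted p = 0.0451) and by edgeR with only the 2 groups fitted (adjusted p = 0.00719).

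Against hearts without a pump, the Ang/PE step gave 0 of 10 called members in WT (0% of all genes called) and 0 in hearts labelled MCT1KO (0.503% of all genes), by edgeR in both. DESeq2 called 0 and 1. An unadjusted p below 0.05 was found for 6 members in each, and for 1595 and 2317 of the 17682 genes. In hearts labelled MCT1KO, 4 of 10 (Ankrd23, Xirp1, Xirp2 and Flnc) were higher in every Ang/PE heart than in every heart without a pump, where 4.49% of all genes were. In WT, Ttn, Ankrd1 and Xirp2 were, 3 of 10, where 3.63% of all genes were. In neither genotype was a member lower without overlap (7.07% of all genes in WT, 3.96% in hearts labelled MCT1KO). Without the 2 hearts named above, Xirp1 (0.83, adjusted p = 0.0266) and Xirp2 (1.03, adjusted p = 0.0318) were called in hearts labelled MCT1KO.

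**Figure D4:**
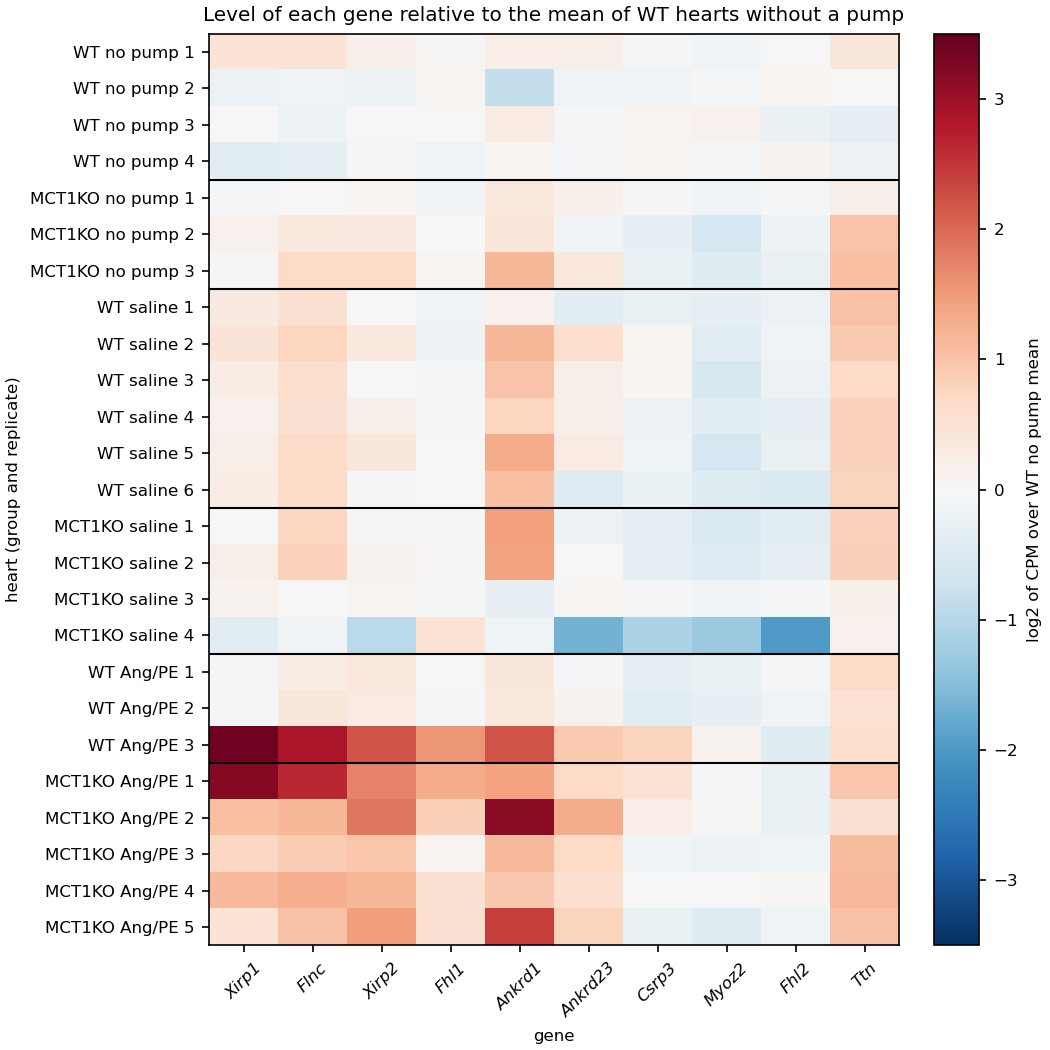
Colour gives log2 of the CPM over the mean of WT hearts without a pump for each of 10 genes (columns) in each of 25 hearts (rows, by group). The deepest red cells are Xirp1 and Flnc in WT Ang/PE replicate 3 and labelled MCT1KO Ang/PE replicate 1 and Ankrd1 in labelled MCT1KO Ang/PE replicate 2, and the deepest blue cells lie in labelled MCT1KO saline replicate 4.

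Within groups, several pairs of members moved together from heart to heart, described here by the correlation of their log2 CPM after the mean of each group was taken out (25 hearts, which share libraries and depth; no test). Xirp1 and Flnc were the closest pair (Pearson's r 0.94, Spearman's rho 0.82), and Xirp1 with Fhl1 had r 0.85 but rho 0.42. Xirp2 was close to Csrp3 (r 0.82, rho 0.69) and to Flnc (r 0.81, rho 0.66), and Ankrd23 to Xirp2 (r 0.77, rho 0.78). Ttn had r from -0.12 to 0.32 with the other members, the highest with Flnc (rho 0.46). Fhl1 and Fhl2 went in opposite directions (r -0.45, rho -0.73).

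Titin itself, the giant spring that spans from Z-disc to M-band, rose from no pump to saline in WT hearts and was not called in any Ang/PE comparison. Ttn was at 50659, 39479, 31186 and 33927 CPM in WT hearts without a pump and at 63238 to 79744 CPM (median 67836) in WT with saline, with no overlap. With Ang/PE it was at 62919, 55017 and 58247 CPM in WT, below every WT saline heart, and at 76042, 56454, 84195, 85114 and 79608 CPM in hearts labelled MCT1KO. In hearts labelled MCT1KO it was already at 44750.4, 76848 and 80715 CPM without a pump and at 67971, 69197, 43813 and 43073 CPM with saline. In WT, Ttn rose from no pump to saline (log2 fold change 0.85, SE 0.19, adjusted p = 0.0158), the 1 member of 10 called in this step, where 6.61% of all genes were called in either direction, 2.39% higher and 4.22% lower. Without overlap, Ttn and Flnc were higher and Myoz2 lower, where 4.1% and 6.22% of all genes were. In hearts labelled MCT1KO the change was -0.27 ± 0.22 (SE). The difference between genotypes in this step was -1.12 ± 0.29 (SE), with an adjusted p of 0.127 by edgeR and 0.0111 by DESeq2. For that difference edgeR called 0 of 10 members and 0.00566% of all genes, and DESeq2 called 1 member. By edgeR 1 member had an unadjusted p below 0.05, as did 3044 of the 17682 genes. Mitochondrially encoded genes took 14.8% to 18.4% of counts in WT hearts without a pump and 8.94% to 14.8% in WT saline hearts.

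The Ttn call depends on the hearts and the correction. Without WT no pump replicate 3 or replicate 4 it was 0.75 (adjusted p = 0.0776) and 0.79 (adjusted p = 0.0644), and with offsets for GC content and length it was 0.47 (adjusted p = 0.224). Ttn has the longest exon union of the members, 116825 bases. Of the 99 other genes with exon unions of at least 20631 bases, 66 had a positive change in this step (median 0.13, median of all genes 0.00), 13 rose and 1 fell. With the atrial and fat scores as covariates the change was 0.82 (adjusted p = 0.643), near the 0.85 without them. These scores were highest in saline hearts, so that fit cannot fully separate them from the saline step. The part of gene length or of other tissue in the Ttn difference was not tested beyond these values.

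**Figure D5:**
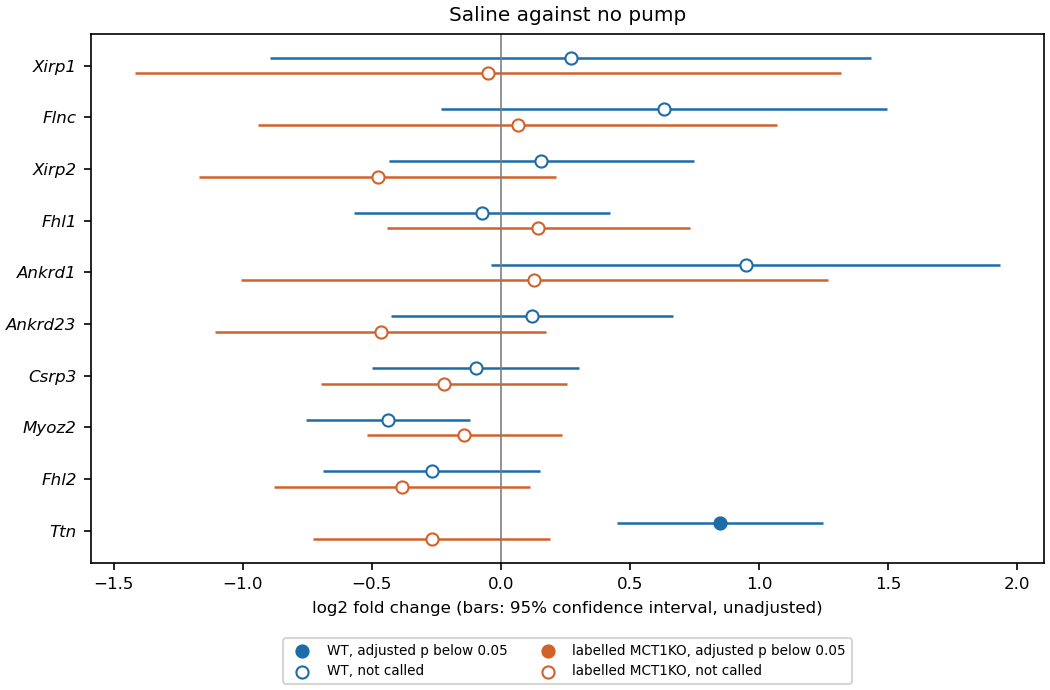
Log2 fold change from no pump to saline with its 95% confidence interval for each gene, WT in blue and labelled MCT1KO in orange; filled points have an adjusted p below 0.05. Ttn in WT is filled at 0.85, with its labelled MCT1KO counterpart at -0.27.

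For Ankrd1 this step gave a change of 0.95 ± 0.47 (SE) in WT and 0.13 ± 0.55 (SE) in hearts labelled MCT1KO, neither called (adjusted p = 0.225 and 0.955). In hearts labelled MCT1KO, 0 of 10 members were called by edgeR or DESeq2, and 0.00566% of all genes were called. There 0 members had an unadjusted p below 0.05, as against 2142 of the 17682 genes. No member was higher or lower without overlap (4.67% and 3.93% of all genes). Among saline hearts, Ankrd1 was at 528 and 387 CPM in the 2 whose atrial markers summed to at most 2.03 CPM (WT replicate 1 and labelled MCT1KO replicate 3), at 803 to 1282 CPM in the 7 with sums of 18.4 to 1136 CPM, and at 429 CPM in labelled MCT1KO replicate 4, with the highest sum. Whether atrial tissue sets the Ankrd1 level of saline hearts was not tested.

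Between genotypes within a treatment, 0 of 10 members were called by edgeR in any of the 3 comparisons, as were 0% of all genes in each. Members with an unadjusted p below 0.05 numbered 2 without a pump, 0 with saline and 0 with Ang/PE. Of all 17682 genes, 2157, 3014 and 1223 had such a p in the same order. Ttn was higher in hearts labelled MCT1KO without a pump (log2 fold change 0.80, SE 0.22, adjusted p = 0.227), where DESeq2 called it (adjusted p = 0.0413), and the ranges overlapped. DESeq2 called 0 members with saline and 0 with Ang/PE. Ankrd1 lay above WT without overlap (607, 636 and 1049 against 554, 267, 577 and 491 CPM) and Myoz2 below it, 1 gene in each direction, where 5.07% and 6.47% of all genes had no overlap. With saline 0 members were higher or lower without overlap (1.07% and 1.82% of all genes), and 0 with Ang/PE (3% and 2.1%). With Ang/PE, Xirp2 differed by 0.23 ± 0.32 (SE) (95% interval -0.44 to 0.90), Ankrd1 by 0.81 ± 0.54 (SE) (-0.30 to 1.93) and Xirp1 by -0.32 ± 0.62 (SE) (-1.62 to 0.97), and the intervals of Ankrd1 and Xirp1 reach beyond 1 log2 unit.

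The reference genes of load differed in which hearts they marked. Nppb, the B-type natriuretic peptide, was at 159, 229 and 855 CPM in WT and 425, 805, 281, 388 and 441 CPM in hearts labelled MCT1KO with Ang/PE, against 99.1 to 166 CPM (median 153) and 210.3, 158, 297 and 80.2 CPM with saline and 290.0, 256, 541 and 198 and 249.8, 45.3 and 162 CPM without a pump (WT first). WT Ang/PE replicate 3 was the highest of all hearts in it. The other 2 WT Ang/PE hearts did not exceed the range of WT hearts without a pump, but the 1 at 229 CPM lay above every WT saline heart. Myh7, the fetal heavy chain of myosin, was at 643, 356 and 1458 CPM and 937, 3865, 1435, 639 and 4667 CPM with Ang/PE and at 268 to 613 CPM (median 385) and 689, 659.5, 239 and 197 CPM with saline; without a pump it was at 172 to 386 and 307 to 798 CPM. It rose in hearts labelled MCT1KO against saline (log2 fold change 2.37, SE 0.59, adjusted p = 0.0268). Nppa, the atrial natriuretic peptide, was at 44.5 to 1459 CPM in WT and 62.5 to 3706 CPM in labelled MCT1KO saline hearts, and at 152 to 315 and 313 to 5144 CPM with Ang/PE, with the groups overlapping; without a pump it was at 58.6 to 130.5 and 20.4 to 462 CPM. Acta1, skeletal alpha-actin, was at 84.5 to 196 and 135 to 583 CPM without a pump, 113 to 459 and 41.3 to 367 CPM with saline and 125 to 301 and 396 to 1097 CPM with Ang/PE. Myh6, the adult heavy chain, was at 17803 to 28409.6 and 20871 to 30154 CPM, 28323 to 34172 and 19694 to 29902 CPM, and 21361 to 28577 and 21619.8 to 31484 CPM in the same order. Of these 5 genes, Myh7 was the 1 called in Ang/PE over saline in hearts labelled MCT1KO, and 0 were called in the same step in WT.

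Genes that work with the members were described from 4 further lists, also chosen with earlier results of these data known. Among 22 tested genes of the Z-disc (of 24), 8 rose and 0 fell with Ang/PE over saline in hearts labelled MCT1KO (median 0.55), where 4.46% of all tested genes were called. The 4 with the smallest p were Pdlim1 (0.68) and Pdlim7 (0.48), PDZ-LIM adaptors, Hspb7 (0.91), a small heat shock protein, and Actn2 (0.68), the actin crosslinker alpha-actinin. Hspb7 was at 1915 to 2557 CPM in Ang/PE hearts labelled MCT1KO and 754 to 1436 CPM with saline. Of 16 tested titin partners and turnover genes, 2 rose, the M-band proteins Myom1 (0.64) and Myom2 (0.75), and 1 fell, Tcap (telethonin, the titin cap, -0.65). Tcap was at 411 to 599.6 CPM with Ang/PE and 529 to 853 CPM with saline in hearts labelled MCT1KO, and these ranges overlapped. Of 14 costamere and intercalated disc genes, Nrap, a nebulin-like actin-binding protein, rose (1.09 ± 0.23 (SE), adjusted p = 0.0141). Nrap was at 1901, 1387, 1517, 1381 and 1441 CPM in Ang/PE hearts labelled MCT1KO and 841, 865, 797 and 361 CPM with saline. Of 15 mechanosensitive regulators, Tead1 (0.49), a factor that binds CATTCC-like elements, and its coactivator Yap1 (0.31) rose. Without saline replicate 4 labelled MCT1KO, these counts were 1, 0 and 0 risen for the Z-disc, costamere and regulator lists, and 0 risen and 1 fallen for the titin partners. With the atrial and fat scores as covariates all were 0, in a fit that cannot fully separate these scores from saline. Calls over all genes moved as well, from 788 with all hearts to between 46 and 1549 with 1 heart left out.

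From no pump to saline in WT hearts, where 6.61% of all tested genes were called and 2.39% were called higher, 3 of 16 tested titin partners rose, among them Obsl1 (0.60), a cytoskeletal adaptor of the M-band, and Rbm20 (0.44), the splicing factor that sets titin isoforms. Rbm20 was at 384 to 490.0 CPM with saline and 296 to 386 CPM without a pump. Of the 14 costamere genes 2 rose, Itga7 (0.49) and Tln2 (0.38), and of the 15 regulators 3 rose, Mef2d (0.43), Nkx2-5 (0.52) and Gata4 (0.57). No Z-disc gene was called, 0 of 22. With the atrial and fat scores as covariates 0 genes of the titin partner, costamere and regulator lists were called in this step. That fit cannot fully separate these scores from saline. In Ang/PE against no pump, Pdlim7 (0.53 ± 0.12 (SE), adjusted p = 0.0346) was the 1 gene of the 4 lists called, in hearts labelled MCT1KO, where 0.503% of all genes were called; in WT 0 were (0% of all genes). In WT, 0 were called in Ang/PE against saline (0.017% of all genes).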

How the data were processed

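Heart RNA of 25 mice was sequenced after ribosomal RNA depletion with a stranded kit, per the labels' protocols. Dissection is not described in the labels used here, and the level of atrial markers differed between hearts, so the part of the heart sampled is not known. The deposited table holds the authors' raw counts per gene. The submitters' processing notes name cutadapt 1.16, STAR 2.7.9a, featureCounts 1.6.3, DESeq2 1.42.1 and the build GRCm39 (mm39), without roles. Whether counting used strand is not given in the sources used here; Ttn, Ankrd23 and Xirp2 share exon bases with Gm13938, Gm42417 and Gm13601, of which Gm13938 had at most 105 counts in a heart. Genes without a symbol held 0.573% to 1.31% of counts.

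Counts were scaled by TMM and fitted with edgeR 4.0.16 (R 4.3.3), quasi-likelihood with robust dispersions, in 1 model of 6 groups and 17682 genes kept by filterByExpr of 56941. Fold changes are log2 with 95% intervals, SE come from the F statistic, and log2 CPM uses a prior count of 2. P-values were Benjamini-Hochberg adjusted over all tested genes, with a call at 0.05. Called counts beside "all genes" are over all 17682. The members, the 5 gene lists and the 8 marker lists were chosen with earlier results of these data known. The other genes named are the members of those lists, at most 4 per list and comparison by p among those called, the reference genes of load, and the 3 genes most like each member. DESeq2 1.42.0, RLE scaling, a non-robust fit, no low-count filter, only the groups compared, mitochondrially encoded genes removed, marker scores or Xist as covariates, each heart left out and the replicate number as a block were tried, and 3 alternatives were added after the data were seen: Ttn left out of the scaling, GC and length offsets (mgcv 1.9.3 splines), and the 2 highest Ang/PE hearts left out. On simulated counts of the Ang/PE step over saline in hearts labelled MCT1KO (17682 genes) the test was checked before use. Levels per length and promoter windows use GENCODE M21 and RefSeq on GRCm38, an older build than the authors', so positions are on GRCm38. A gene of the titin partner list and the upstream sequence of a member are not reported here.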

Additional observations from a re-analysis of the deposited data

Results flagged for a closer look

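Of 40 tests of a gene within a group of 4 to 6 hearts, 7 found 1 heart far from the others; chance alone gives about 1 in 20, and groups of 3 were not tested. Values are log2 CPM, and all 7 fall in hearts labelled MCT1KO. The untested groups include WT Ang/PE, where replicate 3 was 10.9-fold the mean of the other 2 for Xirp1. Genes of 1 heart share its library, so these tests are not independent of each other. With saline, replicate 4 was low in Ankrd23 (5.06, others 6.51 to 6.77) and in Xirp2 (9.14, others 10.13 to 10.21) and high in Fhl1 (7.27, others 6.74 to 6.82). The atrial and fat markers were highest in this heart, and their part in these values was not tested. With Ang/PE, replicate 1 was high in Xirp1 (11.42, others 8.69 to 9.36) and Flnc (11.90, others 10.15 to 10.54). With Ang/PE, replicate 2 was high in Ankrd23 (8.01, others 7.30 to 7.48) and low in Ttn (15.78, others 16.21 to 16.38); Ankrd1 was highest of all hearts in it.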

How the results depend on the processing

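Over 2370 recomputed values of the 10 genes, 0 called values changed sign, 12 calls were lost and 15 were gained; 130 values called in neither fit changed sign. Counts of members called by DESeq2 were 1 without a pump between genotypes, 1 for Ang/PE against saline in WT, 1 for Ang/PE against no pump in hearts labelled MCT1KO, 2 for saline against no pump in WT and 1 for the genotype difference in that step. For Ang/PE over saline in hearts labelled MCT1KO, DESeq2 called the same 2 members as edgeR. For Ang/PE over saline in hearts labelled MCT1KO, the 2 calls became 1 with no low-count filter, 0 with the atrial and fat scores as covariates and 0 with only the groups compared, and 0 to 3 with 1 heart left out. For saline against no pump in WT, the 1 call became 0 with those scores, 4 with only the groups compared (Ttn, Ankrd1 and Flnc rose, Myoz2 fell) and 0 with GC and length offsets, and 0 to 1 with 1 heart left out. In Ang/PE against saline in WT leaving out 1 heart gave 0 to 1 (Xirp2 called without WT Ang/PE replicate 1), and in the genotype difference of the saline step 0 to 1 (Ttn, without WT no pump replicate 1 or labelled MCT1KO no pump replicate 1). Without the 2 high Ang/PE hearts, 2 were called for Ang/PE against no pump in hearts labelled MCT1KO. The atrial and fat scores were highest in saline hearts, so a fit with them cannot fully separate them from saline. Apart from fits with fewer samples or genes, the cause was not tested.

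Calls over all genes moved more: 788 for Ang/PE over saline in hearts labelled MCT1KO (1 to 1224 under other settings, 46 to 1549 with 1 heart left out), 1168 for saline against no pump in WT (0 to 2197, and 60 to 2232), 89 for Ang/PE against no pump in hearts labelled MCT1KO (11 to 403, and 1 to 123) and 3 for Ang/PE against saline in WT (0 to 923, and 1 to 128). The other comparisons had 0 or 1 called genes, with up to 371 under other settings and up to 654 with 1 heart left out.

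Same-numbered hearts did not on average deviate together (52 pairs, mean r 0.0094, range -0.23 to 0.40, 9 above 0.1). No pairing by number was seen, and a shared litter or surgery of single pairs was not tested. With the replicate block, 2 members were called for Ang/PE over saline in hearts labelled MCT1KO (Ankrd23 1.18 and Xirp2, adjusted p = 0.0186), 1 for saline against no pump in WT (Ttn 0.87) and 0 in every other comparison, as without it. No pair of replicates looked like 1 library deposited more than once: the counts of all 43 pairs differed beyond sampling noise. The pair closest to sampling noise was labelled MCT1KO saline replicates 1 and 2 (3.33, the lowest value of the 43 pairs). Both belong to the saline group used for the Ang/PE calls in hearts labelled MCT1KO. Whether any 2 libraries came from the same heart was not tested.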

Other observations

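For each member, the genes whose log2 CPM was most like it over 25 hearts, with the mean of each group taken out, were listed among 11613 genes; hearts share libraries and depth, and no test was made. Those closest to Xirp1 were Hbegf (Pearson's r 0.97, Spearman's rho 0.90), a growth factor, Srxn1 (r 0.97, rho 0.86), a redox enzyme, and Itga5 (r 0.96, rho 0.72), the fibronectin receptor subunit. Hbegf was at 211 CPM in WT Ang/PE replicate 3 and 172 CPM in labelled MCT1KO Ang/PE replicate 1, against 14.1 and 16.2 CPM in the other 2 WT Ang/PE hearts and at most 16.2 CPM in WT saline hearts. Flnc was closest to Uck2 (r 0.95, rho 0.90), Dusp27 (r 0.95, rho 0.86) and Klhl40 (r 0.95, rho 0.88), and Fhl1 to the immediate-early genes Arc (r 0.95, rho 0.79) and Nr4a3 (r 0.91, rho 0.85) and the heat shock gene Hspa1b (r 0.91, rho 0.67). Xirp2 was closest to Rcan1 (r 0.90, rho 0.80), a calcineurin target, and Ankrd1 to Ulk3 (r 0.87, rho 0.85), Synpo2l (r 0.86, rho 0.81) and Myh7 (r 0.86, rho 0.87). Ankrd23 was closest to Clic5 (r 0.89, rho 0.85), Csrp3 to Tnfrsf12a (r 0.93, rho 0.88) and Myoz2 to Uqcc2 (r 0.93, rho 0.83). Fhl2 was closest to Myl3 (r 0.93, rho 0.62) and Ttn to Ppp1r12b (r 0.93, rho 0.90). Pearson's r includes the hearts that stood apart, labelled MCT1KO saline replicate 4, WT Ang/PE replicate 3 and labelled MCT1KO Ang/PE replicate 1, and it was not recomputed without them.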
